A study of Mus musculus with 8 samples.

Results

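Glycogen metabolism was examined through 9 genes, Pygm, Phka1, Phkb, Phkg1, Gys1, Gbe1, Ugp2, Ppp1r3a and Ppp1r3c, out of 19752 genes with a value. They were taken by name, with earlier results of these data known. Each was read from the probe set of highest mean among those annotated to that symbol alone. All 9 were bright enough to be among the 14814 genes tested. The samples were whole tibialis anterior muscles of male C57BL/6 mice of 99 weeks (22 months in the series' design text), frozen at day 8 after a cryoinjury made with a metal probe chilled in liquid nitrogen and held on the muscle for 8 s. In the 4 rIL-33 samples, 2 µg of recombinant interleukin 33 had been injected into the peritoneal cavity the day before and again the day after injury. The other 4 samples carry the treatment label PBS, and their injection times are not given in the sources used here. As genetic background, replicates 1 and 2 of each treatment are labelled C57BL/6 and replicates 3 and 4 are labelled WT, a distinction that the sources used here do not explain. Nothing states that every array is a separate mouse, and the p-values reflect only how much these samples vary, which may be technical.

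Glycogen is the branched glucose store of the muscle fibre. Glycogen synthase lengthens its chains from UDP-glucose and the branching enzyme adds branch points, while glycogen phosphorylase releases glucose 1-phosphate when the fibre works. Phosphorylase kinase, driven by calcium and adrenaline, switches phosphorylase on, and protein phosphatase 1, held on the glycogen particle by its targeting subunits, reverses this and activates the synthase. In an injured muscle the fibres die and are rebuilt, and the glycogen enzymes of the fibre are among the genes of its differentiated state.

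The promoters of 4 of the 9 genes, those with the motif whose window ends at the start of the annotated gene and that represent breakdown, synthesis and phosphatase targeting, are shown as a description of sequence. Whether the motifs bear on the levels of these genes was not tested. Each line gives the 250 bases before the RefSeq start site in build GRCm38.p6, 5′ to 3′ on the strand of the gene. Capitals mark CAGCTG, the form of the E-box CANNTG that myogenic factors are known to bind, and in Ppp1r3a also a match to the consensus of MEF2, a transcription factor family of muscle.
Pygm, chr19:6384158-6384407, plus strand: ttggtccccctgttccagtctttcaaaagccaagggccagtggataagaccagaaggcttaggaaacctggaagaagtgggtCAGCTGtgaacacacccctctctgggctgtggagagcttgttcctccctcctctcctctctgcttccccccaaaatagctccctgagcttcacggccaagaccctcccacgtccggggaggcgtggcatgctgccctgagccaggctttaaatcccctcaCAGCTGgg
Gys1, chr7:45434589-45434838, plus strand: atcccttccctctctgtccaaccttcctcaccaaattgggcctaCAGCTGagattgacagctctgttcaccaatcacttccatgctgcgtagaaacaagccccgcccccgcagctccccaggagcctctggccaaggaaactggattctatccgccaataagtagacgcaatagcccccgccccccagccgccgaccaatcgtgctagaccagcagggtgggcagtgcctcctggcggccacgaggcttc
Ppp1r3a, chr6:14755275-14755524, minus strand: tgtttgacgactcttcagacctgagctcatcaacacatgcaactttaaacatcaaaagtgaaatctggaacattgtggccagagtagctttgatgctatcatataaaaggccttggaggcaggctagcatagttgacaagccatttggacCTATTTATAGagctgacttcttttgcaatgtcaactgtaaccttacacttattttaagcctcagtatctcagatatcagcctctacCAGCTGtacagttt
Ppp1r3c, chr19:36736605-36736854, minus strand: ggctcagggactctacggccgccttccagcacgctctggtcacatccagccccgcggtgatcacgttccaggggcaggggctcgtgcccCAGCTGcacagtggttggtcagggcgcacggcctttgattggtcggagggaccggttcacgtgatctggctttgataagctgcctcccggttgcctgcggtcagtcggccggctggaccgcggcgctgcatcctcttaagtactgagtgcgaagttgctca
The motif CAGCTG, which reads the same on both strands and is contained in the general E-box, was found in the upstream windows of 6 of the 9 genes (Pygm, Gys1, Phka1, Ugp2, Ppp1r3a and Ppp1r3c), and in 13.0% of all 32851 promoter windows of that length. In Pygm it began at -168 and at -8 from the start site, in Gys1 at -206, in Ppp1r3c at -161 and in Ppp1r3a at -14. The general form CANNTG was present in 8 of the 9 genes and in 66.2% of all windows. The MEF2 consensus, searched on both strands, matched in 1 of the 9, Ppp1r3a, at -100, and in 2.92% of all windows, and it overlapped a match to TATAAA there. TATAAA, searched on both strands, was present in this gene of the 9 and in 12.4% of all windows, GGGCGG in 4 of the 9 (Gys1, Phka1, Phkb and Ugp2) and in 32.7%, and CACGTG in Ppp1r3c and in 6.02%. CATTCC, the MCAT motif, was found on neither strand in any of the 10 windows of the 9 genes and in 12.6% of all windows. The counts above are of genes, each counted if any of its windows matched, whereas the percentages are of windows. Counted by window, CAGCTG was in 6 of the 10, CANNTG in 9 and GGGCGG in 5. A match describes the letters in the window and does not show that a factor binds there.

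The 9 glycogen genes each had a higher mean in the rIL-33 muscles than in the PBS muscles, by 0.10 to 0.37 on the log2 scale, with a median of 0.30. None passed the test over all genes (limma adjusted p between 0.489 and 0.766, threshold 0.05). In this comparison 0.00675% of the genes tested passed, which is 1 gene, Retnla, of the resistin-like family (difference 2.74, SE 0.24). A higher mean in rIL-33 muscles was seen in 48.0% of the genes tested, and the median difference of all genes was -0.01. At an unadjusted limma p under 0.05, 4 of the 9 were higher (Phkb, Ppp1r3a, Gbe1 and Ppp1r3c) and 0 lower, against 4.39% of all genes higher. When the background label entered as a block, the count was 6 of 9, against 7.92%. The 5th and 95th percentiles of all differences were -0.26 and 0.23, and 6 of the 9 lay above that range. The 9 genes were measured in the same samples of whole muscle, so they are not independent observations. They were also chosen with earlier results of these data known, so the shares of all genes beside these counts are no test of the list. Values below are log2 intensities, on which a step of 1 is a factor of 2, and a fold is the ratio of geometric means.

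Pygm encodes muscle glycogen phosphorylase, whose loss in humans causes McArdle disease. Its levels were 13.59, 13.48, 13.63 and 13.50 in rIL-33 muscles (replicates 1 to 4), against 13.51, 13.55, 13.44 and 13.32 in PBS muscles. The groups overlapped, with 2 of 4 rIL-33 arrays above all PBS arrays. The difference was 0.10 (limma SE 0.08, 95% interval -0.07 to 0.26, adjusted p = 0.703), a 1.07-fold difference, and it was 0.05 without PBS replicate 4. Pygm had the smallest difference of the 9.

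Phosphorylase kinase was represented by the genes of 3 of its subunits, of which Phka1 and Phkg1 are muscle forms. The genes of its calmodulin subunit are counted with the wider pathway. Phka1 encodes the regulatory alpha subunit, and its levels were 11.98, 11.59, 11.97 and 11.72 in rIL-33 muscles, against 11.63, 11.71, 11.58 and 11.37 in PBS muscles. Every rIL-33 array except replicate 2 exceeded all of the PBS values, and the difference was 0.24 (SE 0.11, limma adjusted p = 0.517). Phkb encodes the regulatory beta subunit, with levels of 11.96, 11.66, 12.05 and 11.60 in rIL-33 muscles, against 11.37, 11.69, 11.41 and 11.31 in PBS muscles. PBS replicate 2 was higher than the other PBS arrays and overlapped the lower rIL-33 arrays. Phkb had the largest difference of the 9, 0.37 (SE 0.12, 95% interval 0.10 to 0.64, limma adjusted p = 0.489), or 1.29-fold, which ranked 139 among all 14814 genes. The exact two-sided permutation p of Phkb over the 70 assignments of the arrays was 0.0857. Phkg1 encodes the catalytic gamma subunit and spread most between arrays. Its levels were 11.16, 10.72, 10.93 and 10.52 in rIL-33 muscles, against 10.73, 10.96, 10.30 and 10.00 in PBS muscles. Only rIL-33 replicate 1 lay above all PBS arrays, and both WT-labelled PBS arrays were low. The difference of Phkg1 was 0.34 (SE 0.20, 95% interval -0.11 to 0.79, limma adjusted p = 0.605), and it was 0.17 without PBS replicate 4.

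The synthetic branch comprised Ugp2, Gys1 and Gbe1. Ugp2 encodes the pyrophosphorylase that makes UDP-glucose. Its levels were 11.82, 11.47, 11.52 and 11.16 in rIL-33 muscles, against 11.29, 11.47, 11.27 and 11.05 in PBS muscles. The groups overlapped through rIL-33 replicate 4, the lowest of its group, and the difference of 0.22 (SE 0.14, limma adjusted p = 0.612) was 0.11 without rIL-33 replicate 1. Gys1 encodes muscle glycogen synthase, with levels of 11.73, 11.54, 11.66 and 11.39 in rIL-33 muscles, against 11.57, 11.64, 11.36 and 11.33 in PBS muscles. Its difference was 0.11 (SE 0.10, 95% interval -0.12 to 0.33, limma adjusted p = 0.766). The groups of Gys1 overlapped, and its difference was 0.06 without rIL-33 replicate 1 and 0.06 without PBS replicate 4. Gbe1 encodes the branching enzyme, with levels of 10.76, 10.31, 10.66 and 10.35 in rIL-33 muscles, against 10.17, 10.19, 10.24 and 10.27 in PBS muscles. Gbe1 was the 1 gene of the 9 whose groups did not overlap, against 2.44% of the genes tested that were higher without overlap. Its difference was 0.30 (SE 0.11, 95% interval 0.07 to 0.53, limma adjusted p = 0.489), with an exact two-sided permutation p of 0.0286, the smallest that 4 against 4 arrays can give. The PBS arrays of Gbe1 lay close together (10.22 ± 0.05), whereas the rIL-33 arrays were spread (10.52 ± 0.22, SD, n = 4 each).

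The glycogen-targeting subunits of protein phosphatase 1 were similar in size of difference. Ppp1r3a encodes the striated muscle subunit, which also anchors the phosphatase to the sarcoplasmic reticulum. Its levels were 12.32, 11.92, 12.34 and 12.02 in rIL-33 muscles, against 11.74, 11.95, 11.87 and 11.71 in PBS muscles. Of the rIL-33 arrays 3 were above all PBS arrays, and the difference was 0.33 (SE 0.11, 95% interval 0.09 to 0.58, limma adjusted p = 0.489). Ppp1r3c encodes the widely expressed subunit known as protein targeting to glycogen, with levels of 11.15, 11.03, 11.33 and 10.81 in rIL-33 muscles, against 10.66, 10.85, 10.90 and 10.58 in PBS muscles. Its difference was also 0.33 (SE 0.12, 95% interval 0.07 to 0.59, limma adjusted p = 0.489), with overlap at rIL-33 replicate 4. The exact two-sided permutation p was 0.0571 for Ppp1r3a and 0.0857 for Ppp1r3c.

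**Figure D1:**
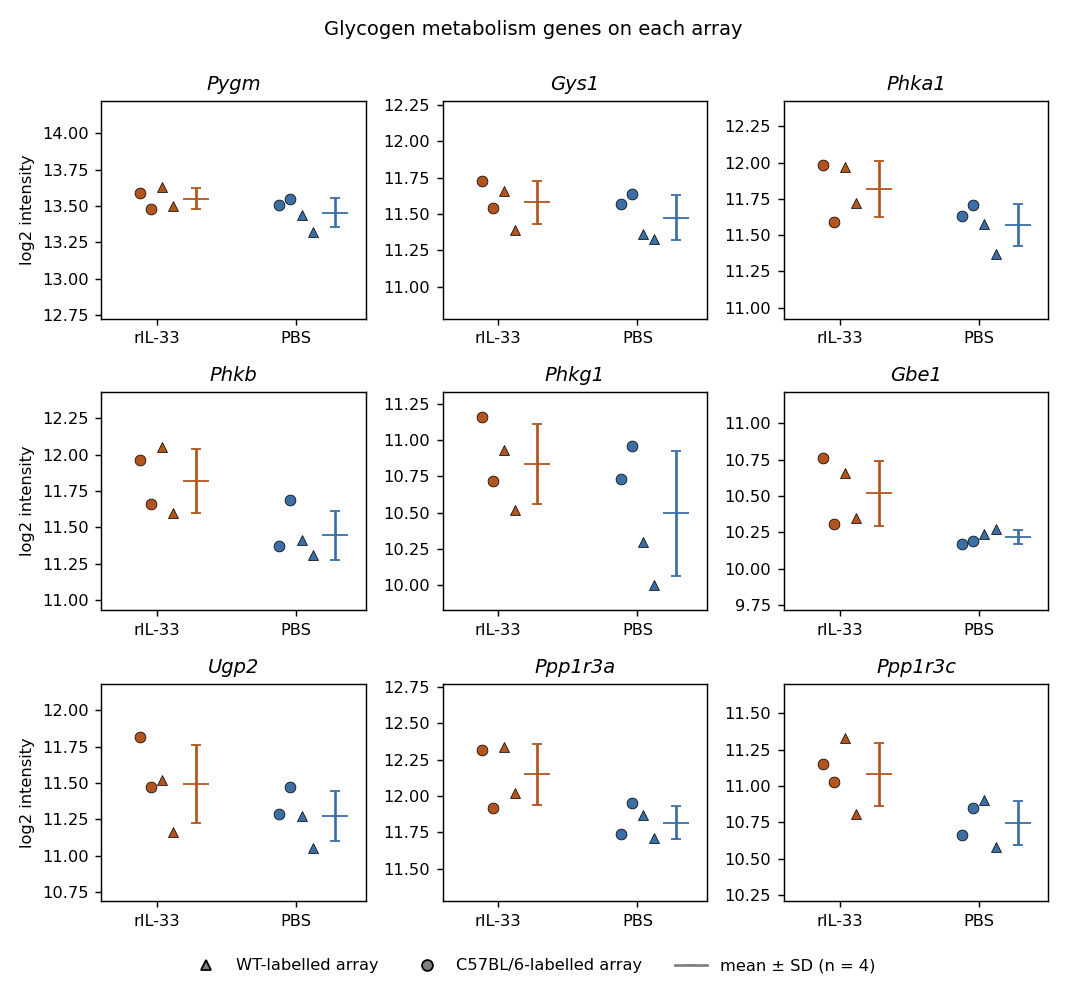
Log2 intensity of the 9 glycogen genes on each array, rIL-33 at the left and PBS at the right of each panel, with triangles for WT-labelled and circles for C57BL/6-labelled arrays and bars for mean ± SD (n = 4). Every panel spans the same height of 1.5 log2 units; the groups are separate in Gbe1 and overlap in the other 8 genes.

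Across the arrays the 9 genes deviated together. On rIL-33 replicate 1 lay the highest value of 5 of them, and on rIL-33 replicate 3 that of the other 4. PBS replicate 4 had the lowest value of 8 of the 9, the exception being Gbe1, which was lowest on PBS replicate 1. Averaged over the 9 genes, the deviation from each gene's mean was 0.31, 0.01, 0.27 and -0.07 on rIL-33 replicates 1 to 4, against -0.11, 0.04, -0.14 and -0.30 on PBS replicates 1 to 4. So rIL-33 replicates 2 and 4 lay within the range of the PBS arrays, and each genetic background label held 1 of the high rIL-33 arrays. Without PBS replicate 4 the median difference of the 9 genes was 0.18, and without rIL-33 replicate 1 it was 0.22.

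The closest pair in pattern was Phkb and Ppp1r3a, whose centred levels differed by a root mean square of 0.0711 log2 units over the 8 arrays, and the farthest was Phkg1 and Gbe1 at 0.297. Outside the 9, the genes nearest to Pygm by this distance were Rtn2 (0.0166), Pcnt (0.0212) and Neurl1a (0.0229). Nearest to Phkg1, the gene with the largest spread over the arrays, were Mrln (0.0644), Rpl3l (0.0725) and Smarcd3 (0.0773). Mrln differed by 0.34, Rpl3l by 0.34 and Smarcd3 by 0.31 between rIL-33 and PBS muscles, none past the threshold (limma adjusted p between 0.543 and 0.642). These distances describe 8 arrays that share their samples and normalization.

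Markers of the cell types in the muscle also differed over the same arrays. All 11 mature myofibre genes, among them Acta1, Ckm and Myh4, were bright enough to be tested, as the labelled tissue requires, and their mean level was 13.21 to 13.42 in rIL-33 muscles, against 13.12 to 13.32 in PBS muscles. Of these 11, 10 were higher in rIL-33 muscles, with a median difference of 0.06 and 0 past the threshold. Averaged over the 11, the deviation from each gene's mean was 0.14, 0.03, 0.06 and -0.07 on rIL-33 replicates 1 to 4. On PBS replicates 1 to 4 it was 0.04, 0.04, -0.09 and -0.16. Within the WT label 10 of the 11 were higher and within the C57BL/6 label 5, and the largest difference over all arrays was that of the fast myosin light chain gene Mylpf (0.20, SE 0.18). The 6 markers of fibro-adipogenic progenitors, the connective tissue cells of muscle, were all lower, with a median of -0.44, 4 of them without overlap between the groups (2.13% of genes tested were lower without overlap), and a mean level of 10.82 to 11.28 in rIL-33 muscles against 11.46 to 11.68 in PBS muscles. Lum, which encodes the collagen-binding proteoglycan lumican, had the largest of these differences (-0.76, SE 0.15, limma adjusted p = 0.489). All 6 macrophage markers were lower, with a median of -0.23 and mean levels of 9.56 to 9.93 in rIL-33 against 9.74 to 10.19 in PBS muscles, and so were the 3 neutrophil markers tested of 6 (6.96 to 7.23 in rIL-33 and 6.77 to 8.81 in PBS muscles), with the high values on the WT-labelled PBS arrays. Ngp was at -0.94 (SE 0.62) and Mmp9 at -0.64 (SE 0.25) over all arrays. Within the C57BL/6 label 2 of these 3 were higher in rIL-33 muscles, Ngp differing by -2.11 within WT and 0.24 within C57BL/6 (limma interaction adjusted p = 0.660). The 6 markers of regenerating fibres, such as the embryonic myosin gene Myh3, were lower over all arrays, with a median of -0.06. Within the C57BL/6 label 4 of them were higher in rIL-33 muscles (median 0.02), and within WT 0 were (median -0.17). The mean deviation of these 6 was -0.14, 0.32, -0.41 and 0.06 on rIL-33 replicates 1 to 4. On PBS replicates 1 to 4 it was 0.25, -0.06, 0.02 and -0.05. No marker of any list passed the threshold. Among 5 slow fibre genes (median 0.02) Myl3 differed by 0.27 (SE 0.25), and among 3 adipocyte genes tested of 5 (median 0.11) Plin1 differed by 0.22 (SE 0.10). The 4 endothelial genes had a median of -0.17. In whole muscle, fewer cells of a type and less RNA per cell cannot be told apart, and the part of the other cell types in the differences of the glycogen genes was not tested.

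**Figure D2:**
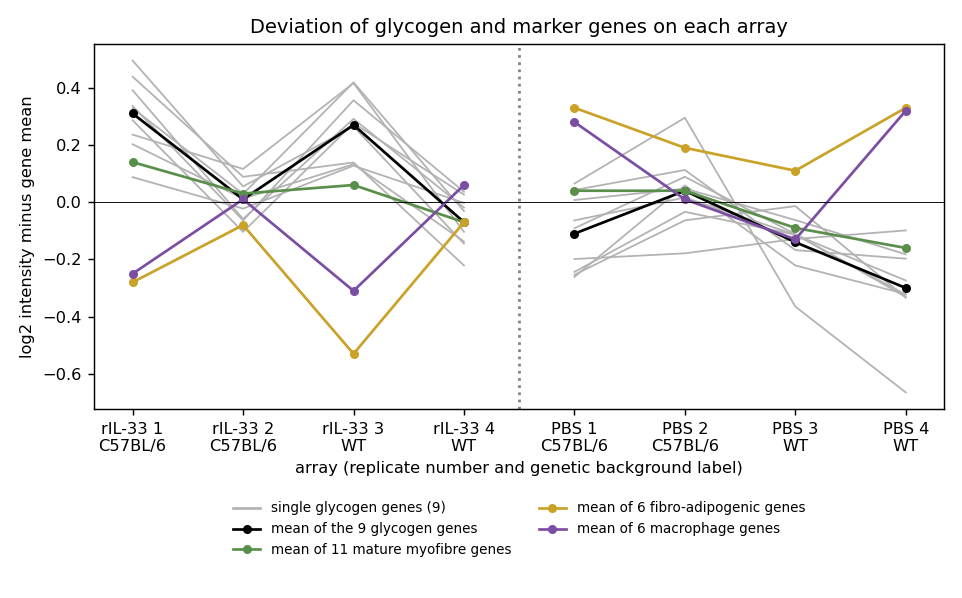
Log2 intensity minus the gene's mean over the 8 arrays (vertical axis), for each array (horizontal axis, rIL-33 left of the dotted line, PBS right; lines join arrays only to guide the eye). Grey lines are the 9 glycogen genes, and their mean is 0.31 and 0.27 on rIL-33 replicates 1 and 3. On these arrays the mean of the mature myofibre genes is 0.14 and 0.06, and that of the fibro-adipogenic genes is -0.28 and -0.53.

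Set against the mean of the 11 mature myofibre genes on the same array, the differences of the glycogen genes had a median of 0.22, and all 9 were above 0. Several of these myofibre genes lie at the upper end of the array's range, among them Acta1 (rank 4 of 14814 by level, 13.89 ± 0.03 in rIL-33 and 13.91 ± 0.09 in PBS muscles, SD, n = 4 each) and Ckm (rank 8), and Pygm ranks 26. Whether saturation narrows their differences was not tested, so these values may correct for fibre content only in part. On this scale 23.8% of all genes tested were higher in rIL-33 muscles and the median of all genes was -0.09. None of the 9 passed (limma adjusted p between 0.530 and 0.943, with 0.00675% of genes passing), and 2 were higher at an unadjusted p under 0.05, against 1.41% of all genes. Pygm differed by 0.01 (95% interval -0.16 to 0.19) and Gys1 by 0.02 (-0.16 to 0.20) relative to the myofibre genes. The kinase subunit Phkb differed by 0.29 (0.05 to 0.53) and Ppp1r3a by 0.25 (0.02 to 0.48). The median of the 9 was 0.32 relative to Acta1 alone, 0.27 relative to Ckm alone, under the same limit, and 0.13 without PBS replicate 4.

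Within the genetic background labels, 9 of 9 glycogen genes were higher in rIL-33 muscles among the WT-labelled arrays, where 50.5% of all genes were, and 9 of 9 among the C57BL/6-labelled arrays, where 45.3% were. A higher mean within both labels was found in 29.5% of the genes tested. The median difference was 0.33 within WT and 0.27 within C57BL/6, with 2 arrays per treatment in each. Phkg1 differed by 0.57 within WT and 0.10 within C57BL/6 (SE 0.19 each), Phka1 by 0.37 within WT and 0.12 within C57BL/6 (SE 0.15), and Pygm by 0.19 within WT and 0.01 within C57BL/6 (SE 0.10). In the other direction, Gbe1 differed by 0.25 within WT and 0.35 within C57BL/6 (SE 0.15), and Ugp2 by 0.18 within WT and 0.27 within C57BL/6 (SE 0.16). Ppp1r3c differed by 0.33 in each. Phkb differed by 0.46 within WT and 0.28 within C57BL/6, Ppp1r3a by 0.39 within WT and 0.27 within C57BL/6, and Gys1 by 0.18 within WT and 0.04 within C57BL/6. No gene of the 9 passed within either label, as contrasts of the fit to all 8 arrays (limma adjusted p between 0.402 and 0.645 within WT, where 0.0473% of all genes passed, and between 0.947 and 0.995 within C57BL/6, where 0.0% did). The test of the difference between the labels found none of the 9 (limma interaction adjusted p = 0.999 for each, 0.0% of genes passing); at an unadjusted limma p under 0.05 it found 0 of the 9, against 3.19% of all genes, and the smallest p was 0.106, for Phkg1, whose WT difference exceeded the C57BL/6 one by 0.48 (SE 0.26).

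The label itself went with a lower mean of 7 of the 9 glycogen genes in WT-labelled muscles, against 54.1% of all genes. Phkg1 differed between WT-labelled and C57BL/6-labelled muscles by -0.45 (SE 0.15), Ugp2 by -0.26 (SE 0.11) and Gys1 by -0.19 (SE 0.08), each at an unadjusted limma p under 0.05, a level at which 18.0% of all genes tested were lower. None passed after adjustment (limma adjusted p = 0.0721 for Phkg1, 0.127 for Ugp2 and 0.138 for Gys1), whereas 9.40% of all genes did. With quantile normalization Phkg1 was at -0.36 (SE 0.15, limma adjusted p = 0.158), Gys1 at -0.10 (SE 0.08) and Ugp2 at -0.17 (SE 0.12). Cyclic loess gave -0.35 for Phkg1 (limma adjusted p = 0.172) and the same differences for Gys1 and Ugp2. The remaining 6 lay between -0.08 and 0.03, and 3 of these, Phka1, Phkb and Ppp1r3c, changed sign with another normalization. By treatment and label, the mean of Phkg1 was 10.73 in WT-labelled and 10.94 in C57BL/6-labelled rIL-33 muscles, against 10.15 in WT-labelled and 10.84 in C57BL/6-labelled PBS muscles, so that the 3 higher means differed by little more than the SE of 0.19 and the WT-labelled PBS muscles stood below them. Pygm followed the same arrangement at 13.56 in WT-labelled and 13.54 in C57BL/6-labelled rIL-33 muscles, against 13.38 in WT-labelled and 13.53 in C57BL/6-labelled PBS muscles, with an SE of 0.10.

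**Figure D3:**
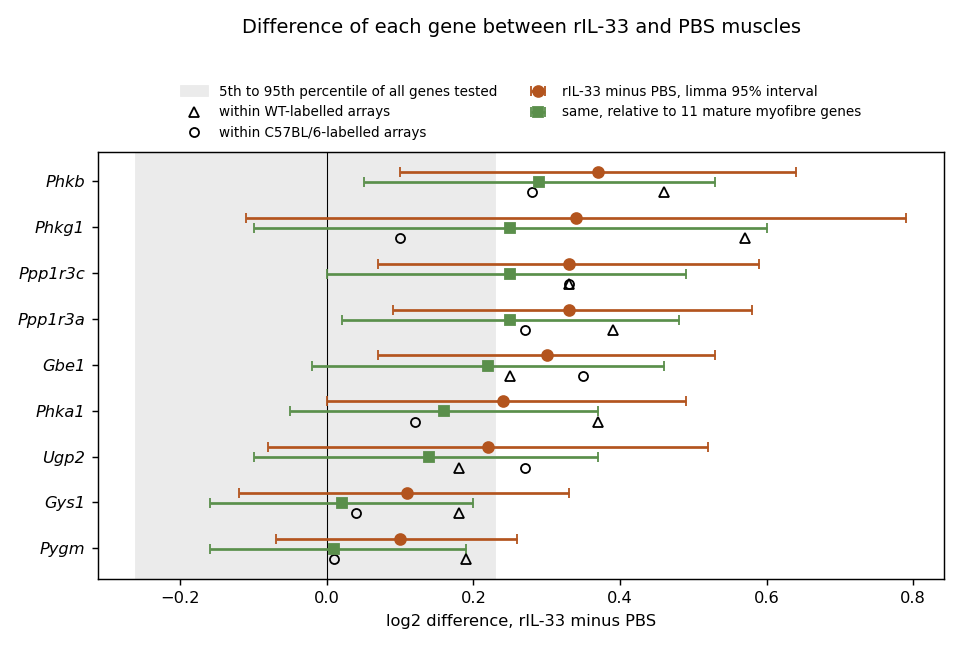
Log2 difference between rIL-33 and PBS muscles (horizontal axis) for each glycogen gene, with 95% intervals of the limma fit for all 8 arrays (circles) and relative to 11 mature myofibre genes (squares), and the values within each label as open symbols. All points lie at or above 0; the grey band is the range of -0.26 to 0.23 between the 5th and 95th percentile of all genes tested.

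The wider glycogen pathway was followed in 38 further genes, of which 37 were tested. Gys2, the liver glycogen synthase gene, was dim (5.61 ± 0.16 in rIL-33 and 5.59 ± 0.17 in PBS muscles, SD, n = 4 each). Of the 37, 22 were higher and 15 lower in rIL-33 muscles, the median was 0.07, and 0 passed the threshold; without adjustment, 6 were higher and 1 lower at a limma p under 0.05 (4.39% and 5.24% of all genes). Epm2a, which encodes the glycogen phosphatase laforin, had the largest positive difference (0.37, SE 0.20, limma adjusted p = 0.558). Next came genes for glucose entry, the insulin-responsive transporter gene Slc2a4 (0.35, SE 0.12) and the hexokinase gene Hk2 (0.33, SE 0.13), both at a limma adjusted p of 0.489. At the other end were Pgm2, a gene of the phosphoglucomutase family (-0.24, SE 0.12), Prkab1, of a regulatory subunit of AMP-activated kinase (-0.21, SE 0.08), and Pygb, the brain form of glycogen phosphorylase (-0.19, SE 0.10).

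Of the 10 kinase genes 8 were higher, with a median of 0.09. Of the 8 other phosphatase 1 subunits 3 were higher and 5 lower, with a median of -0.06. Among these, the targeting subunit genes Ppp1r3b (-0.04), Ppp1r3d (-0.08), Ppp1r3e (-0.12) and Ppp1r3g (-0.11) were lower and Ppp1r3f (0.03) higher. The catalytic subunit genes differed by -0.09 (Ppp1ca), 0.17 (Ppp1cb) and 0.07 (Ppp1cc). The remaining enzymes of glycogen metabolism were split, with 5 higher and 4 lower, and so were the 4 genes of glucose entry, with 2 higher and 2 lower. These counts stand against 48.0% of all genes higher, and no difference between the roles was tested.

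**Figure D4:**
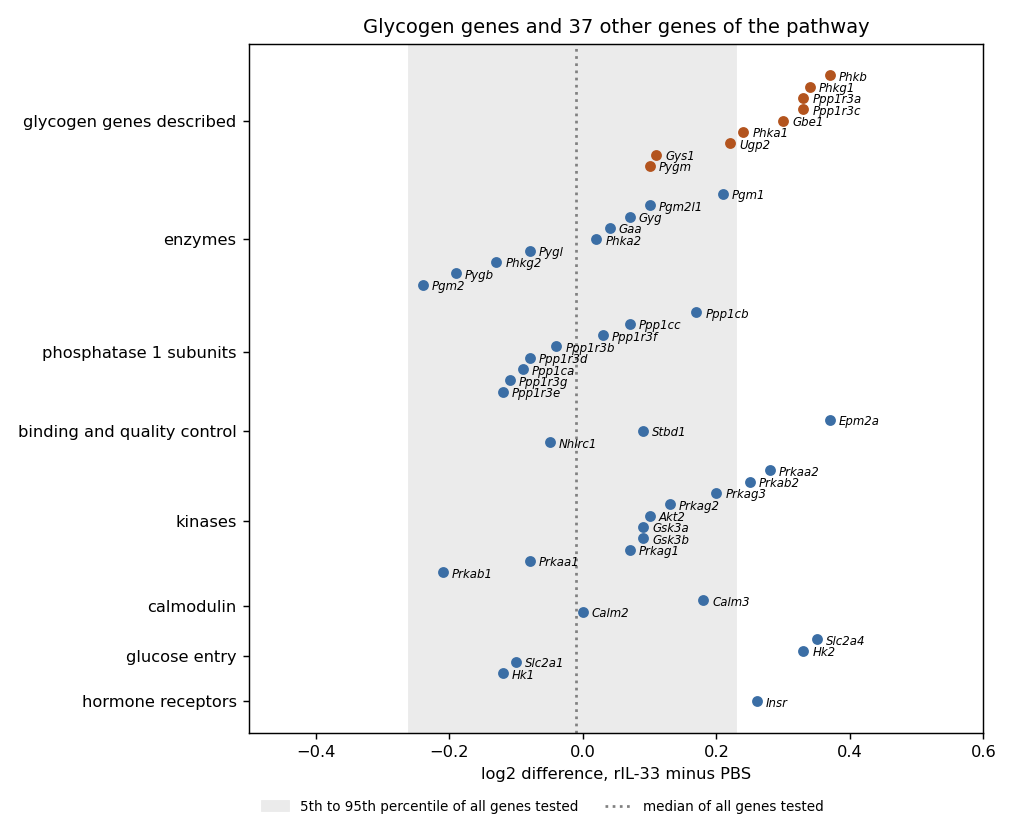
Log2 difference between rIL-33 and PBS muscles (horizontal axis) for the 9 glycogen genes (top row) and 37 other genes of the pathway grouped by role. The 9 run from 0.10 to 0.37, and the other genes from -0.24 (Pgm2) to 0.37 (Epm2a), most of them inside the grey band between the 5th and 95th percentile of all genes.

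Several glycogen genes have counterparts that encode the same activity in other tissues. Pygl, the liver phosphorylase gene, differed by -0.08 (SE 0.10), and Phka2, the liver form of the kinase alpha subunit, by 0.02 (SE 0.08). Phkg2, the liver and testis form of the catalytic subunit, differed by -0.13 (SE 0.10). The ratio of the muscle form to its counterpart within each array was computed for these genes and for pairs of the wider pathway, 8 pairs in all. The pairs were chosen after the values were seen, and those of the wider pathway take some of its most positive genes, so the direction follows from the choice and no test is given. The log2 ratio of Phkg1 to Phkg2 differed by 0.46 between rIL-33 and PBS muscles, that of Pygm to Pygb by 0.29, that of Phka1 to Phka2 by 0.22 and that of Pygm to Pygl by 0.18. In each of these the ratios of rIL-33 replicates 1 and 3 were above all PBS arrays, and those of rIL-33 replicates 2 and 4 were not. For Phkg1 to Phkg2, the ratio on rIL-33 replicate 3 includes a low Phkg2 value (9.0, the other rIL-33 arrays 9.25 to 9.28). Phkg1 itself was 10.93 on that array, below PBS replicate 2 (10.96). Without PBS replicate 4 the difference was 0.05 for Pygm to Pygl, 0.19 for Pygm to Pygb, 0.14 for Phka1 to Phka2 and 0.29 for Slc2a4 to Slc2a1 (0.45 with all arrays). For Phka1 to Phka2 it was 0.12 without rIL-33 replicate 1 and 0.14 without rIL-33 replicate 3.

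**Figure D5:**
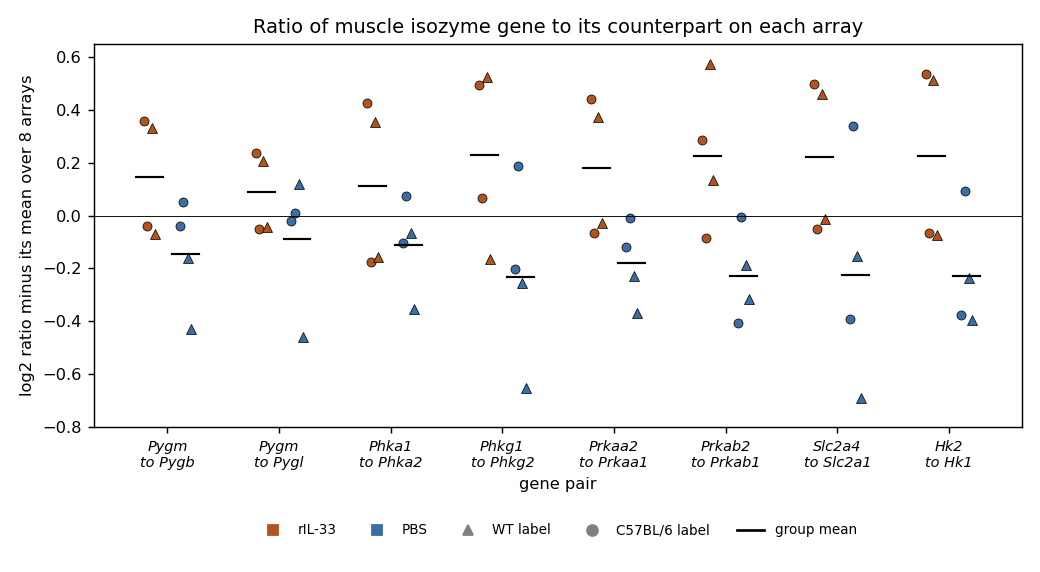
Log2 ratio of the muscle form to its counterpart, minus the mean of the 8 arrays (vertical axis), for 8 gene pairs, rIL-33 left of PBS within each pair, triangles for WT-labelled and circles for C57BL/6-labelled arrays. Group means differ by 0.18 to 0.46, and the groups overlap in every pair.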

How the data were processed

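Whole-muscle RNA, extracted with TriZol and labelled with biotin, was hybridised to 1 Affymetrix Mouse Gene 1.0 ST array per sample, per the labels. The authors deposited intensities on a linear scale for 24922 probe sets, and the submitters' processing notes name RMA and Affymetrix Power Tools, without versions. In general RMA evens out the arrays' distributions and compresses differences of dim probe sets. Quantile normalization of the deposited values still moved the label difference upwards for every glycogen gene except Pygm, for Gbe1 from 0.03 to 0.12. Array medians were 222.6 to 232.2, with precision limited by the number of arrays.

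Log2 was taken here. In the platform annotation 21425 probe sets had 1 symbol, 1399 several and 2098 were not listed; the brightest probe set with 1 symbol stood for each of 19752 genes. Genes whose mean lay below the 25th percentile (6.65), 4938 in all, were left out. Groups were compared with limma 3.58.1 in R 4.3.3 (lmFit, eBayes), with Benjamini-Hochberg adjustment over 14814 genes and a threshold of 0.05. The script was tested on simulated data, with changes larger than the differences of the 9 genes over all arrays. Recovery of differences of their size was not tested. Single values were also compared by exact permutation of the arrays. The alternatives were other normalizations, dim filters, variance models, array weights, blocks, single labels, means of probe sets, a threshold of 0.1 and arrays left out in turn. Promoters came from RefSeq (GRCm38.p6) and all 9 genes matched by symbol. Figures were drawn with matplotlib 3.10.9.

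The 9 genes and the lists were chosen with earlier results of these data known. Named besides them are, of the wider pathway and of the markers, the 3 genes of largest difference in each direction, the isozyme counterparts, and the 3 genes nearest in pattern to Pygm and to the gene of largest spread; the examples Acta1, Ckm, Myh4 and Myh3, the other isozyme genes and Retnla were named after their values were seen.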

Additional observations from a re-analysis of the deposited data

Results flagged for a closer look

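Of 62 groups of 4 arrays examined (the 9 glycogen genes, the pathway and marker genes picked by the naming rule, and the genes nearest in pattern to Pygm and Phkg1, each in rIL-33 and PBS muscles), 1 held a sample far from the others by Dixon's criterion, which chance meets in about 1 of 20 groups. Phkg2, the counterpart of Phkg1, was 9.0 on rIL-33 replicate 3, while the other rIL-33 arrays lay between 9.25 and 9.28. None of the 9 glycogen genes had such a sample in either group, and none differed between the genetic background labels in its response to rIL-33 past the threshold.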

How the results depend on the processing

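The 9 glycogen genes kept a higher mean in rIL-33 muscles under all 20 alternatives, and 0 passed the threshold under any of them. Changes of dim filter, variance model, block or threshold cannot alter a gene's difference in this balanced design. The direction was therefore open only under the other alternatives. The median difference of the 9 ran from 0.18 (without PBS replicate 4) to 0.36, and was 0.19 with array weights. The number at an unadjusted p under 0.05, 4 of 9, became 1 with array weights, 2 in the C57BL/6-labelled arrays alone and 7 when replicate numbers entered as a block, and 3 to 6 with single arrays left out. Over all genes, 1 passed; this became 0 with the replicate block, 4 in the WT-labelled arrays alone, 2 in the C57BL/6-labelled arrays alone (fits to 4 arrays, whereas the contrasts within labels above use all 8), and 1 to 2 with single arrays left out. The numbers were not taken as a pairing, since not every pair of same-numbered arrays correlated above 0.1 in its deviations (0.44, -0.19, 0.43 and 0.54 for replicates 1 to 4); rIL-33 replicates 3 and 4 correlated best with their own number, replicates 1 and 2 did not. The label difference changed sign for Phka1 (0.02 with quantile and 0.02 with cyclic loess normalization), Phkb (0.01 with cyclic loess) and Ppp1r3c (0.07 with quantile and 0.08 with cyclic loess), all near 0, and the cause was not tested. Relative to the myofibre genes, Pygm was at -0.01 without rIL-33 replicate 3 and -0.01 without rIL-33 replicate 4, in a range of -0.01 to 0.03 over single arrays left out. Among the isozyme ratios, Pygm to Pygl lay between 0.05 and 0.25 with single arrays left out.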
